A study of Rattus norvegicus with 3 samples.

Results

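Ribosomal RNA forms the catalytic and structural core of the ribosome. In mammals 18S RNA belongs to the small subunit, while 28S, 5.8S and 5S RNA belong to the large subunit. RNA polymerase I makes 18S, 5.8S and 28S RNA from a shared precursor of repeated genes, whereas RNA polymerase III makes 5S RNA from separate, tandemly repeated genes. Mammalian genomes also carry many scattered copies of the short 5S and 5.8S genes, and copies of this kind can be too alike for short reads to be assigned to a single one.

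The genes described here are those that the deposited table classes as ribosomal RNA outside the mitochondrial genome, 175 of 29684 genes. They comprised 1 gene each for 28S and 18S RNA, 29 genes for 5.8S RNA and 144 genes for 5S RNA, by the names in the table. The RNA came from extracellular vesicles, small particles enclosed by a membrane that cells shed, which were taken from the medium of wild type rat mesenchymal stem cells of inguinal fat. There was 1 group of 3 libraries, called replicates 1 to 3, and the labels name no treatment besides vesicle extraction. Separate animals or cultures are not mentioned for the replicates, so the spread between them can be technical. Before the last round of PCR, cDNA of ribosomal RNA had been cut with probes, so every level below is what remained after that step and not the content of the vesicles. Fewer vesicles and less RNA per vesicle cannot be told apart in such libraries.

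The table held 5219920, 6786182 and 6618461 counts in replicates 1, 2 and 3. All 6 markers of mesenchymal stem cells had reads, at 4.39 to 17.4 FPKM (fragments scaled to gene length and library size). The 5 haematopoietic markers, Cd34 among them, were listed as ones that such cultures should lack. They had reads as well, at 2.78 to 6.97 FPKM. Whether these cells lack each of the 5 was not tested. Neither list had a member called above the background described below. Their levels therefore did not set the labelled cell type apart, and their part in the ribosomal RNA levels was not tested.

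Ribosomal RNA genes held 15.02% ± 1.91 (SD, n = 3) of all counts, and nearly all of this was 28S RNA. Replicate 1 had a share of 14.4% (exact 95% binomial interval 14.39 to 14.45), replicate 2 of 17.2% (17.14 to 17.20) and replicate 3 of 13.5% (13.46 to 13.51). The intervals treat each count as an independent read, and the protocol names no molecular identifiers, so they can understate counting error. They cover no other error, and the share of each library lay far outside the intervals of the other libraries. These shares are of the counts in the table, which are 65.5%, 70.7% and 68.7% of the library totals that FPKM implies in replicates 1, 2 and 3. Of those totals the genes held 9.44%, 12.1% and 9.27%. Of the ribosomal RNA counts, the 28S gene held 98.7% ± 0.461, the 18S gene 0.765% ± 0.402, the 144 5S genes 0.522% ± 0.0611 and the 29 5.8S genes 0.0140% ± 0.00398 (SD, n = 3). Without the 28S gene, the rest held 0.193% ± 0.0620 of all counts. On a scale divided by length the short genes weighed more. Of the summed FPKM of ribosomal RNA genes, 28S held 81.03% ± 2.31, 5S 17.04% ± 1.57, 18S 1.60% ± 0.798 and 5.8S 0.329% ± 0.108.

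The 28S, 18S and 5.8S genes of a single transcription unit on chromosome 3 stood at very different levels. The unit lies on the plus strand of build mRatBN7.2, in the order 18S (LOC120102105, 2231807 to 2233678), 5.8S (LOC120101957, 2234750 to 2234902) and 28S (LOC120093067, 2235683 to 2240483). In the table these genes span 1872, 153 and 4801 bases, with 1071 bases between the 18S and 5.8S genes and 780 between the 5.8S and 28S genes. The 28S RNA, which holds the peptidyl transferase centre of the large subunit, had 19298, 25039 and 19094 FPKM in replicates 1, 2 and 3, on 738803, 1153696 and 882818 counts. Replicate 2 stood above the other libraries, which lay close together.

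The 18S RNA, which decodes the mRNA in the small subunit, had 618, 314 and 290 FPKM in replicates 1, 2 and 3, on 9227, 5642 and 5224 counts. Its order across the libraries differed from that of 28S, with replicate 1 highest. The 28S level was 31.2, 79.7 and 65.9 times the 18S level in replicates 1, 2 and 3, a mean of 58.95 ± 24.99 (SD, n = 3). In log2 units the difference was 5.77 ± 0.71, in the same direction in 3 of 3 libraries (exact two-sided sign-flip permutation test, p = 0.25, the smallest that 3 libraries allow; adjusted p = 0.25 over 5 such ratios). The ratio was lowest in replicate 1, where 18S was highest, and the other libraries lay close together.

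The 5.8S gene of the same unit, whose RNA pairs with 28S RNA in the large subunit, had 16.2, 37.6 and 30.9 FPKM in replicates 1, 2 and 3, on 20, 56 and 46 counts. It was lowest in replicate 1, the library in which 18S was highest. The 28S level exceeded it by 9.62 ± 0.52 in log2 units, and the 18S level by 3.85 ± 1.22, each in 3 of 3 libraries (exact two-sided sign-flip permutation test, p = 0.25 for each, the smallest possible). With so few counts, the level of this gene is known less precisely than that of its neighbours.

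The 2 ribosomal RNA genes of the mitochondrial genome, which serve the ribosomes inside mitochondria, gave a comparison within the same libraries. The shorter one (AY172581.9, 958 bases) had 910, 1506 and 1156 FPKM in replicates 1, 2 and 3, and the longer one (AY172581.24, 1571 bases) had 1216, 2039 and 1434 FPKM. Both were highest in replicate 2 and lowest in replicate 1. The longer gene stood 1.34, 1.35 and 1.24 times as high as the shorter one, so this ratio between the RNAs of the large and the small subunit spread far less than that of 28S to 18S. The shorter gene exceeded nuclear 18S by 1.61 ± 0.92 in log2 units, in 3 of 3 libraries (exact two-sided sign-flip permutation test, p = 0.25, the smallest possible), and 28S was 13.8 ± 1.84 times the longer gene.

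**Figure D1:**
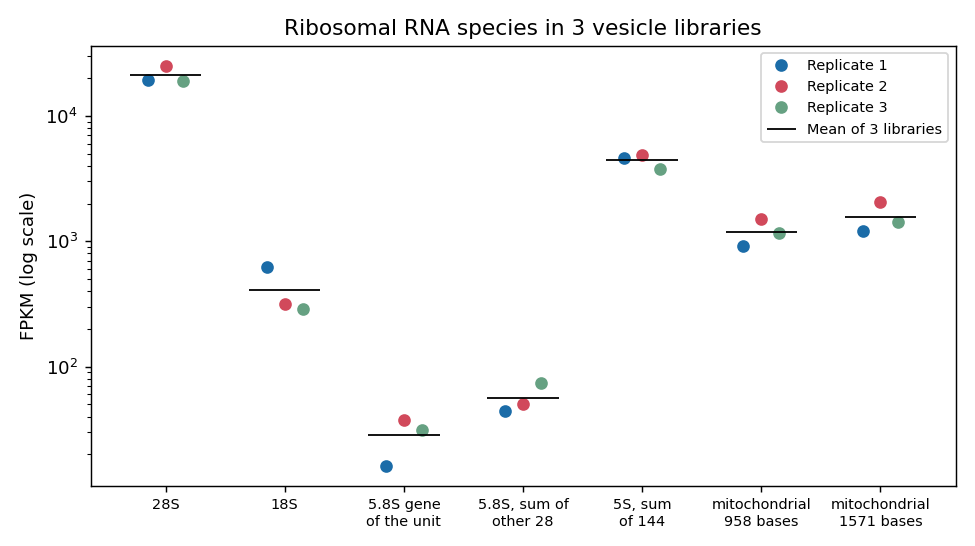
Level in FPKM (log axis) of each ribosomal RNA species in replicates 1, 2 and 3 (points), with the mean as a bar; for 5S and for the 5.8S genes outside the unit the levels of the copies are summed. The 28S gene lies between 19094 and 25039 FPKM, the 5S sum between 3769 and 4870 and the 18S gene between 290 and 618.

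The 5S RNA, which sits in the central protuberance of the large subunit, had most of its counts assigned to a single array of genes on chromosome 19. Summed over its 144 genes, 5S had 4643, 4870 and 3769 FPKM in replicates 1, 2 and 3. The libraries spread less in this sum than in 18S. The sum was 12.0 ± 4.09 times the 18S level (SD, n = 3), and 28S was 4.79 ± 0.548 times the sum. All but 21 of these genes lay in 3 tandem arrays, defined after the coordinates were seen as at least 10 neighbours with gaps of at most 20000 bases.

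The chromosome 19 array held 21 genes on the minus strand, from 51574203 to 51610193, each spanning 119 bases. Its median spacing from start to start was 1760 bases, and 19 of 20 spacings lay within 25 bases of that. The array held 69.6% of the 5S counts in replicate 1 (exact 95% interval 68.2 to 71.0), 83.7% in replicate 2 (82.7 to 84.6) and 71.2% in replicate 3 (69.8 to 72.5). The share of replicate 2 thus lay above the intervals of the other libraries, on 4457, 5625 and 4378 5S counts in the 3 libraries. The intervals treat each count as an independent read, so they can understate counting error.

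Within this array the copies were nearly level with each other. Mean FPKM ran from 81.9 to 196, with a coefficient of variation over copies of 14.1%. The highest copy, LOC120098748 (51583020 to 51583138), had 189, 236 and 162 FPKM in replicates 1, 2 and 3. After it came LOC120098683 at 184 ± 34.6 FPKM (SD, n = 3), LOC120098736 at 182.01 ± 41.1, LOC120098672 at 181 ± 29.7 and LOC120098722 at 173 ± 34.6. LOC120098725 had 169.8 ± 43.9, LOC120098693 165.8 ± 30.0, LOC120098719 165.7 ± 39.5, LOC120098666 165.1 ± 25.4 and LOC120098717 163.6 ± 39.0. LOC120098711, LOC120098712 and LOC120098721 followed at 160.7 ± 29.2, 158.9 ± 32.2 and 158.6 ± 43.6. These neighbours in the order differed by less than the spread between libraries. The single low copy, LOC120098723 at the low-coordinate end (51574203 to 51574321), had 56.3, 121 and 67.9 FPKM, below each of the other 20 copies in the same library. Without it the coefficient of variation was 8.54%.

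Every copy of the array was highest in replicate 2, and 20 of 21 were lowest in replicate 3. For comparison, 24.1% of all genes were highest in replicate 2. The copies share their sequence family and reads can be divided among them, so 21 copies are not 21 independent observations.

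**Figure D2:**
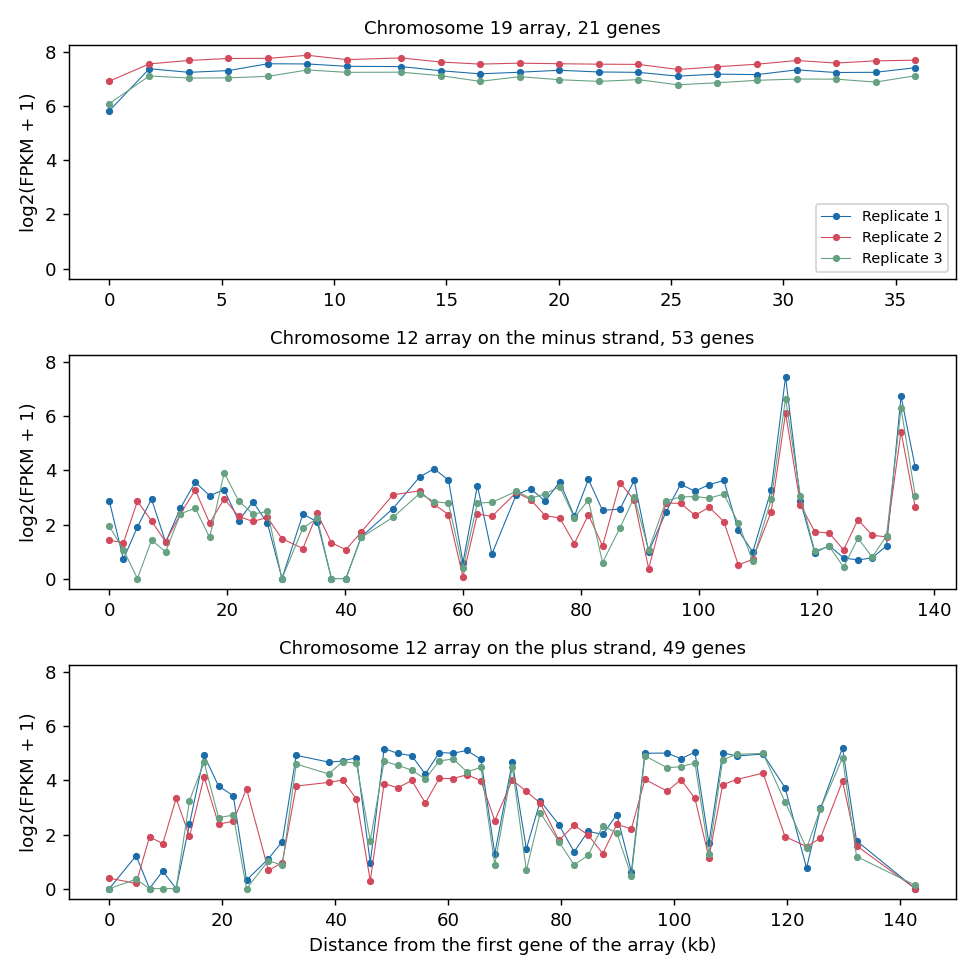
Level of each 5S gene as log2(FPKM + 1) against distance in kb from the lowest-coordinate gene of its array, for replicates 1, 2 and 3. The chromosome 19 copies form a flat line apart from the copy at 0 kb, whereas 2 copies of the minus-strand chromosome 12 array rise above the rest, and the plus-strand array holds 22 copies over 10 FPKM and 27 below.

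A pair of larger arrays on chromosome 12 held most of the 5S genes, at lower levels. The array on the minus strand had 53 genes between 1044405 and 1181258, and the array on the plus strand had 49 genes between 4007176 and 4149916. Their median spacings were 2453.5 and 2468.5 bases, longer than on chromosome 19, and in each all genes but 1 spanned 118 bases. Of the 5S counts of replicates 1, 2 and 3 they held 28.4%, 15.2% and 26.5% together. The summed FPKM of the chromosome 19 array was 2.50, 5.801 and 2.77 times that of both chromosome 12 arrays in replicates 1, 2 and 3.

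In the minus-strand array 2 copies, noticed after their values were seen, held 41.7% ± 7.03 (SD, n = 3) of its counts. Rn5s (ENSRNOG00000068794, 1159142 to 1159259), the 5S gene that carries a symbol of its own in the table, had 176, 68.7 and 100.1 FPKM in replicates 1, 2 and 3. LOC120096034 (1178736 to 1178853) had 106, 42.4 and 77.6 FPKM. Both were highest in replicate 1 and lowest in replicate 2, the reverse of the chromosome 19 copies for replicate 2. The other 51 copies had means from 0.288 to 9.87 FPKM, with a median of 4.13. Among them were LOC120096030 and LOC120096072, which with LOC120096074 of the plus-strand array had the lowest means of the 5S genes with counts in every library. LOC120096030 had 0.507, 0.0471 and 0.310 FPKM in replicates 1, 2 and 3, LOC120096072 had 0.697, 1.09 and 0.340, and LOC120096074 had 1.32, 0.141 and 0.268. In each of these genes the deposited counts were 1 or 2. Such counts are rounded up, so a value can rest on less than 1 read.

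The plus-strand array fell into a higher and a lower range, here split at 10 FPKM after the values were seen. Of its 49 copies, 22 had means from 13.8 to 26.6 FPKM, with a median of 21.9 and a coefficient of variation of 12.5%. The other 27 had means from 0.0305 to 7.79 FPKM, with a median of 2.33. The median of the 22 higher copies was 30.02, 14.95 and 23.99 FPKM in replicates 1, 2 and 3, and each of the 22 was lowest in replicate 2. Over all genes 42.5% were lowest in replicate 2. The highest of them, LOC120096021 (4122862 to 4122979), had 30.5, 18.3 and 31.1 FPKM. As a description over the 49 copies, the levels as log2(FPKM + 1) in replicates 1 and 3 had a Pearson's r of 0.975, against 0.778 for replicates 1 and 2 and 0.756 for replicates 2 and 3. The points share their libraries and may share reads. Over the 21 chromosome 19 copies r was 0.918 to 0.947, with the single low copy LOC120098723 included. How far r rests on that copy was not tested.

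**Figure D3:**
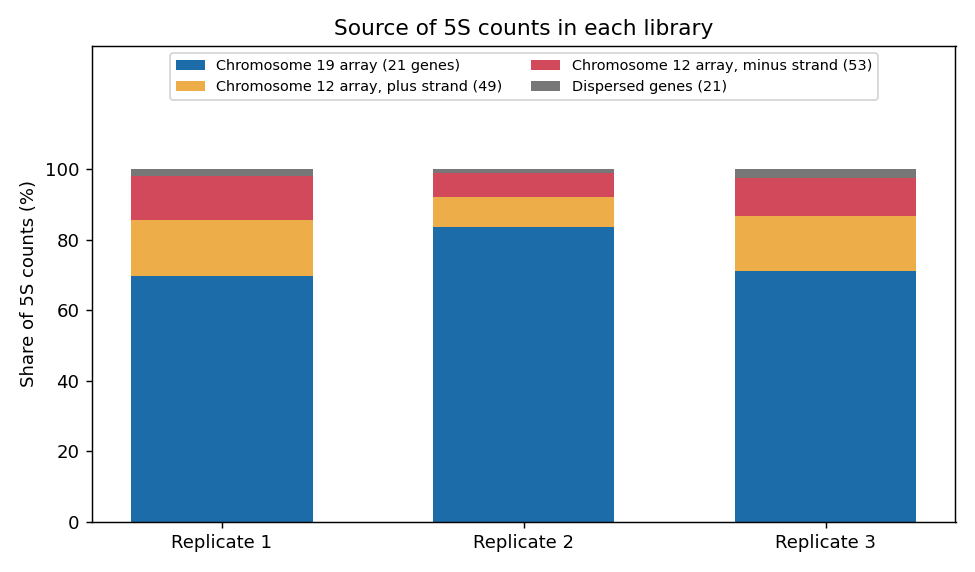
Share of the 5S counts (percent) assigned to each array and to the dispersed genes, in replicates 1, 2 and 3. The chromosome 19 array holds 69.6%, 83.7% and 71.2%, and both chromosome 12 arrays together 28.4%, 15.2% and 26.5%.

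The dispersed 5S genes were mostly at or below the level of genes that these cells are not known for using. As such a background the median olfactory or vomeronasal receptor gene, which encodes a chemosensory receptor of the nose, was taken, at 2.95, 2.35 and 2.64 FPKM in replicates 1, 2 and 3 (1314 genes). Of the 21 dispersed genes, 16 had a mean below the mean of these medians, and 14 had a count of 0 in at least 1 library. Over all 29684 genes the same held for 6663 and 2681. Low values were common in other short genes. The same held for 755 and 688 of 1303 small nuclear RNA genes and for 195 and 202 of 391 microRNA genes. For 1599 small nucleolar RNA genes it was 619 and 505. The highest dispersed 5S gene was LOC120100437 on chromosome 1 (207205662 to 207205779), at 20.02, 14.9 and 23.3 FPKM. LOC120096078 on chromosome 12 (34444803 to 34444920) had 19.2, 7.98 and 8.94, and it lies inside Ccdc63, a protein-coding gene on the other strand at 5.78 ± 1.36 FPKM. LOC120093275 on chromosome 6 had 8.81, 9.74 and 17.4 FPKM, and LOC120100110 on chromosome 1 had 3.99, 7.41 and 9.33. In all, 8 of the 21 overlapped another gene of the table, 5 of them on the same strand. Those 5 had means from 0.361 to 0.828 FPKM, against 3.72 to 11.4 for the genes they overlap. LOC120096080 lies inside Baz1b, which is on the other strand. It had 0.288, 0 and 5.47 FPKM against 44.1 ± 8.06 for Baz1b. Whether reads of an overlapping gene enter the value was not tested.

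The 5.8S genes outside the transcription unit were mostly below the receptor background as well. All 28 lay within the lowest 5 Mb of 6 chromosomes. Their means ran from 0.112 to 14.4 FPKM, with a median of 1.20, and 23 of 28 lay below the mean receptor median, against 6663 of all 29684 genes. LOC120102613 on chromosome 4 (1546402 to 1546554) was the highest, at 13.3, 12.2 and 17.6 FPKM. LOC120102624, also on chromosome 4, followed with 0.699, 2.41 and 9.95 FPKM, which rests on 1, 4 and 15 counts. LOC120102591 had 4.31, 5.26 and 2.65 FPKM and LOC120093061 on chromosome 11 had 2.42, 5.56 and 3.28. The other 24 had means of at most 2.79 FPKM. Summed, the 28 copies had 44.6, 49.9 and 73.9 FPKM in replicates 1, 2 and 3, more than the 5.8S gene of the unit in each library.

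**Figure D4:**
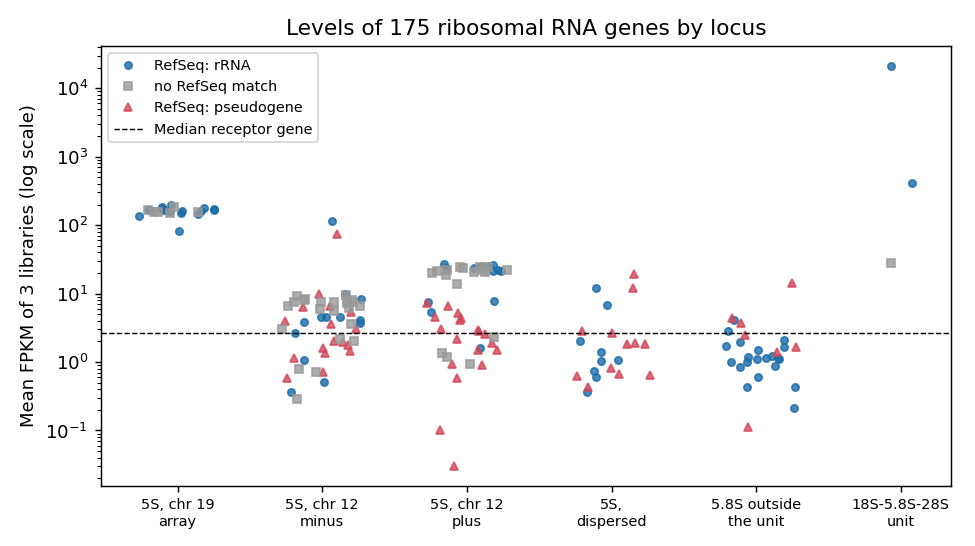
Mean FPKM over 3 libraries (log axis) of each of the 175 genes, by locus, with the RefSeq class of the gene as the symbol; the dashed line is the median receptor gene at 2.65 FPKM. The 21 chromosome 19 copies sit between 81.9 and 196 FPKM, and the genes that RefSeq classes as pseudogenes in the plus-strand chromosome 12 array stay at or below 7.40 FPKM.

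RefSeq classes, which played no part in choosing the genes, divided the 5S copies by level in the plus-strand chromosome 12 array. By Entrez identifier 128 of the 175 genes matched RefSeq on build GRCr8, which classes 73 of them as ribosomal RNA and 55 as pseudogenes. In the plus-strand array 0 of 19 pseudogenes had a mean over 10 FPKM, against 9 of 13 genes classed as ribosomal RNA and 13 of 17 without a match. The median mean level was 2.55 FPKM for the pseudogenes, with a range of 0.0305 to 7.40, and 21.8 FPKM for the ribosomal RNA class, with a range of 1.61 to 26.6. In the minus-strand array the medians were 2.03 and 4.13 FPKM, and LOC120096034, which is classed as a pseudogene, was the second highest copy there. In the chromosome 19 array 15 copies were classed as ribosomal RNA, 0 as pseudogenes and 6 had no match. Among the dispersed 5S genes the order depended on the summary. The median of the mean levels was 1.83 FPKM for 12 pseudogenes and 1.08 for 9 genes of the ribosomal RNA class, whereas within replicates 1, 2 and 3 the medians were 0.999, 0.426 and 1.43 FPKM for the pseudogenes and 1.71, 1.07 and 1.84 for the ribosomal RNA class. Among the 5.8S genes outside the unit the medians of the mean levels were 2.51 for 7 pseudogenes and 1.14 for 21 genes of the ribosomal RNA class. Because the copies can share reads, these values are given with no test.

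Against the receptor background the long genes and the chromosome 19 array stood out. Of the 175 genes, 104 (59.4%) reached 1 FPKM in all 3 libraries, against 83.7% of all genes. Among other classes of short genes this share was lower, at 54.0% for small nucleolar RNA, 35.0% for microRNA and 32.8% for small nuclear RNA genes. By class, 97 of 144 5S genes (67.4%) and 5 of 29 5.8S genes (17.2%) reached 1 FPKM in all 3 libraries. Among the 21 dispersed 5S genes 5 did (23.8%). The shares of the 5.8S genes and the dispersed 5S genes were thus below those of all 3 other classes. At an adjusted p under 0.05 (limma, treat), 25 of the 175 genes (14.3%) exceeded the receptor median by more than 2 in log2(FPKM + 1), which is 5.14-fold in FPKM, against 1.79% of all genes. They were the 28S and 18S genes, all 21 copies of the chromosome 19 array, Rn5s and LOC120096034. The copies of that array can share reads, so they are not 21 independent calls. Of 3293 small nuclear RNA, small nucleolar RNA and microRNA genes, 57 (1.73%) were called. No call was made among the 49 copies of the plus-strand array, the 21 dispersed 5S genes or the 29 5.8S genes, of which 19, 1 and 1 had an unadjusted p under 0.05 (limma).

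The 28S gene lay 12.49 above the receptor median (SE 1.17, adjusted p 0.0158, limma) and the 18S gene 6.72 (SE 0.28, adjusted p 0.00270), both higher in 3 of 3 libraries. These SE rest on variances that limma draws towards a trend over all genes, so they do not give each gene's own spread between libraries. LOC120098748 lay 5.74 above the receptor median and Rn5s 4.89 (adjusted p 0.00270 and 0.00618, limma). The 5.8S gene of the unit was 2.93 above it and was not called (adjusted p 0.415, limma). At an unadjusted p under 0.05, 46 of the 175 genes and 1143 of all genes lay above the threshold. Without replicate 3 limma called 0 of the 175 genes and 0 of all genes (38 and 948 at an unadjusted p under 0.05), while without replicate 1 or 2 it called 26 or 24 of the 175. On the CPM scale, which is not divided by length, calls fell on 1 of the 175 genes and on 3670 of all 29684 genes. There the 175 genes were called less often than all genes, whereas with FPKM and all 3 libraries they were called more often.

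Genes whose proteins make or handle ribosomal RNA were measured as mRNA in the same libraries, in lists chosen with earlier results of these data known. Of the 5S ribonucleoprotein list 3 of 7 were called by limma against the receptor background, where 1.79% of all genes were. The other members were not called, and the median of the list was 6.37 FPKM, against 4.67 over all genes. Rpl11 and Rpl5 encode the ribosomal proteins that bind 5S RNA before it enters the large subunit. Rpl11 had 77.9, 137 and 170.5 FPKM in replicates 1, 2 and 3 (adjusted p 0.00755, limma). Rpl5 had 69.7, 156 and 132 FPKM (adjusted p 0.0104, limma). Hspa8, a general chaperone, had 69.2 ± 23.7 FPKM and was called as well. All 3 were lowest in replicate 1, unlike the 5S sum, and reads of ribosomal protein pseudogenes may enter these values.

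Of the list for processing and modification of the precursor, 4 of 37 measured genes were called. These were Ncl (nucleolin) at 2217 ± 760 FPKM, Npm1 (nucleophosmin) at 147 ± 56.3, Fbl (fibrillarin, which methylates ribosomal RNA) at 39.9 ± 6.53 and Las1l, part of the complex that cuts the spacer between 5.8S and 28S, at 28.8 ± 1.505 (SD, n = 3). The third highest of the list, Utp3 at 43.04 ± 14.1, was not called (adjusted p 0.0558, limma). The median of the list was 8.11 FPKM, against 4.67 over all genes.

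The transcription lists had no called gene. For RNA polymerase I, 0 of 20 were called (0 at an unadjusted p under 0.05, limma), with a median of 5.66 FPKM. Its highest members were Polr2k, a subunit shared by the 3 nuclear RNA polymerases, at 16.3 ± 10.1, Polr1g at 15.1 ± 1.70 and Ubtf, the upstream binding factor of ribosomal DNA, at 13.1 ± 2.59. For RNA polymerase III and its factors 0 of 21 were called (1 at an unadjusted p under 0.05, limma), with a median of 5.92 FPKM. Polr3gl had 30.3 ± 8.39, Gtf3c6 11.5 ± 3.13 and Polr3d 11.2 ± 3.63. Gtf3a, the factor that binds inside 5S genes, was the lowest of the list at 1.65 ± 0.0464. For surveillance and decay of ribosomal RNA 0 of 14 were called (0 at an unadjusted p under 0.05, limma), with a median of 4.39 FPKM and Zcchc7 highest at 8.57 ± 1.94, followed by Exosc7 at 7.57 ± 2.83. The absence of a call does not show that a gene has no RNA in the vesicles.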

How the data were processed

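Total RNA libraries were made with a stranded low-input kit that includes removal of ribosomal cDNA, per the labels' protocols. Reads were trimmed with cutadapt 1.9 and the build was mRatBN7.2, per the submitters' processing notes; which aligner and counter were used, and how they dealt with strand and with reads that match several copies, is not given in the sources used here. Per the file headers, the authors deposited gene counts and FPKM for each library. In 175 of 175 ribosomal RNA genes and each library, the deposited count equalled FPKM times span times the implied total (7974250, 9597349 and 9630310 in replicates 1, 2 and 3), rounded up to the next whole number (tolerance 0.001). The products were within 0.02 of a whole number in 7, 8 and 4 of the 160, 158 and 160 genes with counts. Counts of low genes are therefore rounded-up estimates, which raises the short genes' sum (4543 counts against 4469 in replicate 1). The authors' mean FPKM column was not used.

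Means and SD over libraries, exact binomial intervals (scipy 1.17.1) and exact sign-flip tests of single ratios were computed. The median of 1314 receptor genes was subtracted from log2(FPKM + 1) within each library, and limma 3.58.1 (treat, difference over 2, trended prior variance) was fitted on all 29684 genes with Benjamini-Hochberg adjustment; the test was checked on simulated data. FPKM are not counts, and with 1 group no count model had a contrast. edgeR 4.0.16 gave TMM factors for an alternative. Differences between gene classes in median level have no p, since the members were chosen with earlier results of these data known, as were all lists and the form of the test.

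Genes named in the text were the long loci, the 5.8S genes (beyond the highest, as a range), the 10 highest and 3 lowest 5S genes with counts in every library, up to 15 genes called, the mitochondrial ribosomal RNA genes and, per list, the 3 highest and any called; the others were chosen after their values were seen. A gene that this rule names is not reported here. Ribosomal RNA sequences were not used here.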

Additional observations from a re-analysis of the deposited data

How the results depend on the processing

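Of the values that moved by more than the spread between libraries, most did so with the unit. By summed FPKM in place of counts, the share of ribosomal RNA genes was 6.498% (10.28% of the totals that FPKM implies, in place of 15.02% of the counts), and within them long loci held 82.6%, 5S genes 17.04% and 5.8S genes 0.329%. The ratio of 28S to 18S was 151 in counts, which are not divided by length. On the log2(FPKM + 1) scale the median 5S gene exceeded the median receptor gene by 0.86, with 1.06 at a pseudocount of 0.1, 1.12 among genes with a mean of 1 FPKM or more and -2.04 with CPM. The median 5.8S gene differed from the median 5S gene by -1.64, with -2.23 at a pseudocount of 0.1 and -0.56 with CPM, and long loci by 8.74, with 12.58 with CPM and 8.37 under the same filter on the mean. At 5 FPKM 64 genes were detected and at 10 counts 51, in place of 104. By limma, the main setting called 25 of the 175 genes and 531 of all genes. Over a difference of 1 these were 50 and 2631, and with CPM 1 and 3670. A pseudocount of 0.1 called 37 of the 175 and 818 of all genes. The other settings of scaling, prior variance and filter called 25 of the 175, and 367 to 551 of all genes tested. Leaving out a replicate gave 0 to 26 calls among the 175 and 0 to 768 over all genes, both 0 without replicate 3. It gave 113 to 116 detected genes. It gave a share of 13.95% to 15.8% of all counts for ribosomal RNA, a 28S to 18S ratio of 48.6 to 72.8 and a chromosome 19 share of the 5S counts of 70.4% to 77.4%. The cause of each change was not tested. The chromosome 19 share was 75.6% with the fractional reads that FPKM implies. The alternatives for this share and the 28S to 18S ratio, and the implied totals, were chosen after seeing the data. Leaving out a single value of 3 cannot move a mean by as much as its SD, so these ranges are no sign of stability. For 47 named genes the mean differed by more than the SD between CPM and FPKM in 28 and by less in 19. No paired analysis was possible because there is 1 group. Copies with a few counts are limited by depth, and how reads that match several copies were assigned, which bears on single-copy levels, was not tested.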

Other observations

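A pair of annotated genes lie on the strand opposite the 18S and 28S genes of chromosome 3 and had reads. ENSRNOG00000063301, listed as protein-coding, runs from 2237964 to 2242882 on the minus strand. Between these ends, any introns included, it shares 2520 bases with the 28S gene. How much of that is counted as exon was not tested. It had 42.8, 36.6 and 25.8 FPKM in replicates 1, 2 and 3, on 156, 161 and 114 counts, while the 28S gene had its highest level in replicate 2. ENSRNOG00000069208, listed as a pseudogene, runs from 2233522 to 2234359 on the minus strand and shares 157 bases with the 18S gene. It had 26.7, 16.6 and 22.5 FPKM, on 170, 127 and 172 counts. How strand was treated in counting is not given in the sources used here, so reads of the ribosomal RNA and of these genes cannot be told apart.

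In a few 5S copies of the plus-strand chromosome 12 array, chosen after their values were seen, most counts came from replicate 2. LOC120096065 had 0, 11 and 0 counts in replicates 1, 2 and 3, LOC120096075 had 1, 14 and 0, and LOC120096071 had 2, 13 and 1. RefSeq classes all 3 as pseudogenes. In the 22 higher copies of the same array the lowest level was in replicate 2.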
